A study of Mus musculus with 8 samples.

Results

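Legumain, 7 cathepsins and cystatin C were followed as RNA in fibro/adipogenic progenitors, or FAPs, which are stromal cells of skeletal muscle that carry the surface receptor PDGFRα. The 9 genes, Lgmn, Ctsa, Ctsb, Ctsd, Ctsk, Ctsl, Ctss, Ctsz and Cst3, were chosen by symbol from 31053 genes in the files, and all 9 were found. They were read in barcodes with at least 500 genes, at most 10% mitochondrial UMIs (unique molecular identifiers, each 1 captured RNA molecule) and at least 1 Pdgfra UMI. That kept 1533 of 2073 wild type barcodes and 1435 of 1724 knockout barcodes. The genes were picked with their levels in these cells already known, so the values below describe them and no test was made.

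The cells came from hindlimb and psoas muscles of female mice aged 8 months. They were C57BL/6 wild type animals or dysferlin knockouts. The knockout strain is spelled BLA/J in one label and B6A/J in the protocol. Live PDGFRα-positive single cells were sorted and sequenced with a droplet 3′ kit. Each group has 4 labelled samples but 1 count matrix, and nothing ties a cell to a sample or an animal. Each group was therefore 1 library, without replicates, and genotype, strain background and library preparation cannot be told apart. All intervals below are 95% intervals for counting error only.

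The median kept barcode held 9177 UMIs in wild type and 12717 in knockout cells, from totals of 14420247 and 19170199 UMIs. Each of 12 listed FAP markers was detected in 50% or more of the cells, in both libraries. Pdgfra is among the 12, and its detection was set by the filter. Dysf itself had 9 wild type and 14 knockout UMIs. A 3′ tag may lie outside the changed part of the gene, so this count does not check the labels. The libraries shared 13 barcode sequences, of which 2 wild type and 4 knockout barcodes were kept. The summed level of 15 macrophage markers was 15.5 CPM (UMIs in every 1000000) in wild type and 147 CPM in knockout cells. Ptprc and C1qa were at 0 in the wild type, and no marker was at 0 in the knockout library. No wild type barcode and 20 knockout barcodes carried 3 or more of these markers.

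Cathepsins are proteases of lysosomes that break down proteins delivered by endocytosis and autophagy, and some are secreted and cut extracellular matrix. Cathepsins B, K, L, S and Z are cysteine proteases, cathepsin D is an aspartic protease, and cathepsin A is a serine carboxypeptidase. Legumain cuts after asparagine and helps to process several cathepsins, while cystatin C is a secreted inhibitor that blocks papain-like cathepsins and, at a separate surface, legumain. In muscle, FAPs make and remodel the interstitial matrix, and dysferlin is a membrane repair protein whose loss leads to progressive fibre damage and fatty replacement.

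Sequence upstream of the start sites is shown for Lgmn and Ctsk. They had the highest knockout over wild type ratios among members with a mean of at least 20 CPM. Sequence is also shown for Ctss, the neighbour of Ctsk, and for Ctsd, whose promoter carries the E-box of lysosomal genes. The sequences are RefSeq's, build GRCm38.p6, written 5′ to 3′ on the gene's strand, for bases outside annotated exons or for a site of 30 bases. Capitals mark CACGTG, the E-box core bound by lysosomal regulators such as TFEB, or GAAA repeated after any 2 bases, as in the interferon-stimulated response element. Lgmn has 2 listed start sites: the upstream part of the first lies at chr12:102439814-102439978, minus strand, and the E-box of the second in chr12:102439124-102439153. The Ctsk stretch is chr3:95498960-95499209, plus strand, the Ctss stretch chr3:95526536-95526785, plus strand, and the Ctsd site chr7:142387908-142387937, minus strand.
Lgmn, first start site: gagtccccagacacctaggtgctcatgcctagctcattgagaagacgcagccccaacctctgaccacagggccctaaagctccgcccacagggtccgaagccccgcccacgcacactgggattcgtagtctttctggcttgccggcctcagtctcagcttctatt
Lgmn, second start site: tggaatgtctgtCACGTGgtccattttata
Ctsk: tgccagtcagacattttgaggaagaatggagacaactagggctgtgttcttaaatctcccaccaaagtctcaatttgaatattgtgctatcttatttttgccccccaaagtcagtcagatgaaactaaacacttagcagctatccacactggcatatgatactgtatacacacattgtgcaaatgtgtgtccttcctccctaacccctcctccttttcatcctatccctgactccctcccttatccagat
Ctss: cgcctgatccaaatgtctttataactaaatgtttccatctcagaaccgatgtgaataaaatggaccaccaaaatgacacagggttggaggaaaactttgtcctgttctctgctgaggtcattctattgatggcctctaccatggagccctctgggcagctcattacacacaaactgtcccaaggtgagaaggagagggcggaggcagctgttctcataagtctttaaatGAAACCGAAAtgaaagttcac
Ctsd: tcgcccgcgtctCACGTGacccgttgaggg

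RefSeq promoter entries were found for 8 of the 9 genes, as 10 start sites in all, with no entry for Ctsb. Both strands of the 250 bases before each start site were searched. CACGTG was present before the second start site of Lgmn (at -49 from the start), the second of Ctsa (-12), and in Ctsl (-236) and Ctsd (-245 and -98). It was present in 6.02% of 32851 promoters of the same length. The longer TCACGTGA, which contains CACGTG, was present in Ctsd (-99) and at the second Ctsa start (-13), against 0.785% of all promoters. The repeated GAAA was present in Ctss alone (-21), against 2.98% of all promoters, and TTCNNNGAA, the STAT-type spacing, in none of the 10 against 7.02%. Ctsk, Ctsz and Cst3 held none of these letters in this window, which says nothing about the factors.

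Lgmn (ENSMUSG00000021190, chromosome 12, 102394084 to 102439813, minus strand, mm10 throughout) had the highest ratio between libraries among members with a mean of at least 20 CPM. It had 349 UMIs in wild type and 2241 in knockout cells, or 24.2 CPM (21.7 to 26.9) and 117 CPM (112 to 122). The knockout over wild type ratio, on the log2 scale, was 2.27 (2.11 to 2.44), a 4.83-fold difference and the 11th highest ratio among 5933 genes with a mean of at least 20 CPM. The counting intervals of the libraries did not meet.

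Of the cysteine cathepsins, Ctsk and Ctsb also had more RNA in the knockout library. Ctsk encodes the collagen-degrading protease best known from osteoclasts (ENSMUSG00000028111, chromosome 3, 95499256 to 95509362, plus strand). Its 2231 wild type and 5496 knockout UMIs gave 155 CPM (148 to 161) and 287 CPM (279 to 294), a log2 ratio of 0.89 (0.82 to 0.96), or 1.85-fold. Ctsb, a broad-range lysosomal protease (ENSMUSG00000021939, chromosome 14, 63122462 to 63145923, plus strand), had 552 and 792 CPM, a log2 ratio of 0.52 (0.48 to 0.56), or 1.44-fold, just under the 1.5-fold size used here.

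Ctsl and Ctsz were nearly level between the libraries. Ctsl, an endopeptidase of most cells (ENSMUSG00000021477, chromosome 13, 64359337 to 64370890, minus strand), had 1150 CPM in wild type and 1185 CPM in knockout cells, a log2 ratio of 0.04 (0.02 to 0.07). Ctsz, which trims single residues from the carboxy end (ENSMUSG00000016256, chromosome 2, 174427493 to 174439039, minus strand), had 297 and 302 CPM, and its ratio of 0.02 (-0.04 to 0.08) had an interval that spans 0. The direction for Ctsz turned under 7 of 12 other settings, and that for Ctsl within clusters.

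Ctss encodes cathepsin S, which trims the invariant chain in antigen-presenting cells, and lies 17423 bases beyond Ctsk on the same strand (ENSMUSG00000038642, chromosome 3, 95526786 to 95556403). It was close to undetected: 5 UMIs in the wild type (0.347 CPM) and 136 in the knockout library (7.09 CPM), below the 20 CPM minimum. Of the 136, 122 (89.7%) came from 1 barcode. That barcode held 47703 UMIs, 14 of the 15 macrophage markers, 971 Lyz2 UMIs, 1 Pdgfra UMI, and 1 UMI each of Col1a1 and Dcn. Without it, Ctss had 14 UMIs in 12 cells, or 0.732 CPM, and a log2 ratio of 1.08 (-0.48 to 2.91) whose interval spans 0. The same barcode held 0.268% of the Lgmn, 0.646% of the Ctsb and 1.35% of the Ctsd UMIs of its library.

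Ctsd and Ctsa represent the other catalytic types. Ctsd, the aspartic protease (ENSMUSG00000007891, chromosome 7, 142375911 to 142388038, minus strand), had 206 CPM in wild type and 220 CPM in knockout cells, a log2 ratio of 0.09 (0.03 to 0.16). Ctsa, the serine carboxypeptidase that also shields lysosomal β-galactosidase and neuraminidase (ENSMUSG00000017760, chromosome 2, 164832873 to 164841032, plus strand), had 71.5 and 92.6 CPM, a ratio of 0.37 (0.26 to 0.49). A gene annotated on the same strand overlaps Ctsd (Gm49369), Ctsl (Gm49230) and Ctss (Hmgb1-ps5), so how the counting divided shared reads is uncertain there.

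Cst3, the inhibitor (ENSMUSG00000027447, chromosome 2, 148871722 to 148875692, minus strand), was the most abundant of the 9 by UMIs. A 3′ library counts 1 tag for each molecule, so levels of different genes can be compared without scaling by length, apart from how well each tag is captured. Cst3 had 2594 CPM in wild type and 2451 CPM in knockout cells, a log2 ratio of -0.08 (-0.10 to -0.06), placing it above 99.4% of the 5933 genes by mean level. By mean CPM over both libraries the order was Cst3, Ctsl, Ctsb, Ctsz, Ctsk, Ctsd, Ctsa, Lgmn and Ctss. In 2 neighbouring pairs of that order, Ctsk with Ctsd and Ctsa with Lgmn, the genes changed places between the libraries.

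**Figure D1:**
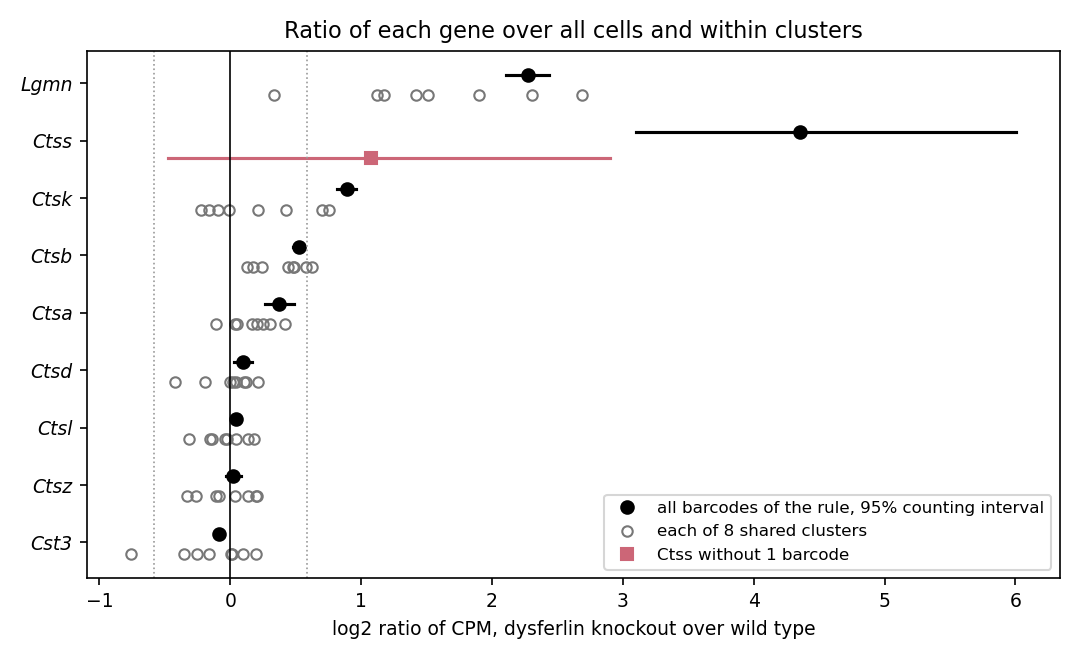
Knockout over wild type ratio of CPM on the log2 scale for each of the 9 genes: filled points are all kept cells with 95% counting intervals, open circles the 8 shared clusters described further on, the square Ctss without 1 barcode, and dotted lines 1.5-fold. Lgmn at 2.27 and Ctsk at 0.89 lie past the line, Ctsb at 0.52 just short of it, and Ctss moves from 4.35 to 1.08 without that barcode.

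Of the 8 members that passed the 20 CPM minimum, 2 (Lgmn and Ctsk) reached 1.5-fold higher levels in knockout cells, against 5.07% of all 5933 genes. As a median over the clusters that both libraries shared, described further on, Ctsk was not past that size (log2 ratio 0.10), while Lgmn was (1.47). The share of all genes past it as such a median was not computed. Over all kept cells, none of the 8 was at least 1.5-fold lower, against 3.59%. Of the 8, Lgmn was the one past 2-fold upward, against 1.77% of all genes, and none was past it downward, against 1.01%. The median log2 ratio of the 8 was 0.23, and that of all genes 0.05.

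Together the 9 genes made up 0.505% of all UMIs in wild type and 0.545% in knockout cells. The 5 cysteine cathepsins summed to 2154 CPM in wild type and 2573 CPM in knockout cells, while Cst3 stayed near its level. There were 1.20 Cst3 UMIs for each cysteine cathepsin UMI in wild type and 0.953 in knockout cells. Cell by cell the share of Cst3 in the sum of Cst3 and cysteine cathepsin UMIs was wide, with a median of 43.4% (10th to 90th percentile 20 to 79.4%) in 1148 wild type cells and 41.2% (17.9 to 73.1%) in 1206 knockout cells with at least 20 such UMIs. The 2 distributions overlapped over nearly their whole range.

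The number of cells in which a gene is seen depends on depth, so each cell was also thinned to 5000 UMIs, which left out 299 wild type and 172 knockout cells. Lgmn was seen in 17.2% (15.3 to 19.1) of wild type and 56.2% (53.6 to 58.8) of knockout cells, and after thinning in 11.1% (9.40 to 13.0) and 35.4% (32.8 to 38.1). At least 2 Lgmn UMIs remained in 12 wild type and 158 knockout cells after thinning. The mean over thinned cells with any Lgmn UMI was 1.10 in wild type and 1.52 in knockout cells. Both the number of such cells and their count were thus higher in the knockout library. At counts this sparse a higher mean level raises both, so they are not separate findings.

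Ctsk was seen in 53.9% of wild type and 79.4% of knockout cells, and in 40.8% (38.1 to 43.6) and 61.4% (58.6 to 64.1) after thinning. As a gauge of free RNA, 37 wild type barcodes with endothelial markers and no Pdgfra UMI had Ctsk in 5.41% (0.661 to 18.2) and Lgmn in 13.5% (4.54 to 28.8), at a median of 3138 UMIs. Ctsk was at 9.64 CPM there, far below its FAP level, while Lgmn was at 81.9 CPM, from 5 barcodes. Endothelial cells are not known to lack Lgmn, so no class free of it was at hand. The thinned wild type share of Lgmn in FAPs, 11.1%, was within the endothelial interval, and the part of free RNA in it was not tested. The knockout library had 5 such endothelial barcodes, too few for a comparison.

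Ctsb, Ctsl and Cst3 were found in over 91% of thinned cells of each library. Ctsb was seen in 91.8% of wild type and 97.0% of knockout cells, Ctsl in 99.2% and 98.6%, and Cst3 in 98.3% and 97.4%. Ctsz (75.8 and 74.7%) and Ctsd (62.2 and 63.1%) were in most cells and level, while Ctsa was in 28.3% and 37.1%. Ctss was seen in 5 of 1533 wild type and 13 of 1435 knockout cells before thinning.

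**Figure D2:**
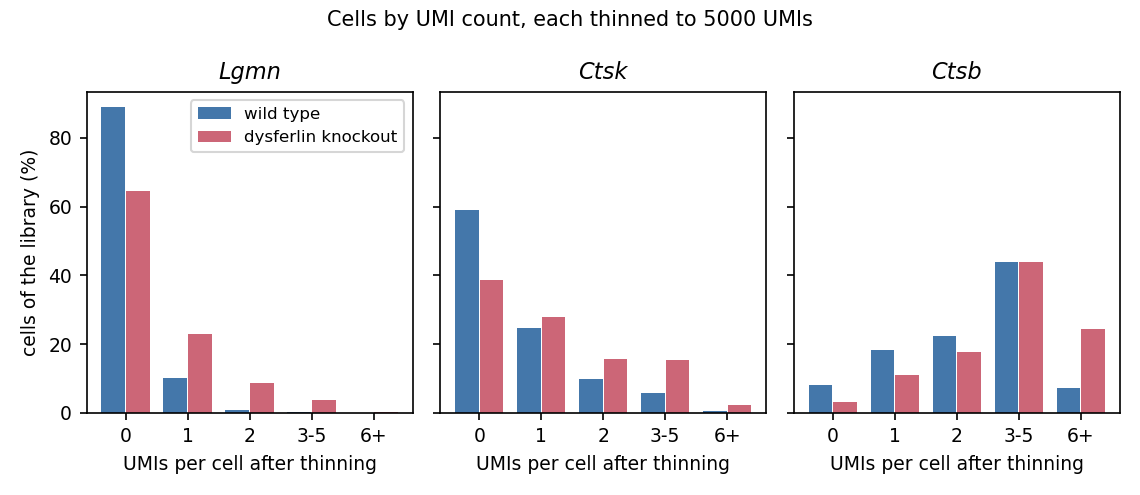
Percent of the 1234 wild type and 1263 knockout cells with 0, 1, 2, 3 to 5, and 6 or more UMIs of Lgmn, Ctsk and Ctsb, after every cell was thinned to 5000 UMIs. Lgmn was at 0 in 88.9% of wild type and 64.6% of knockout cells, and cells with 6 or more Ctsb UMIs were 7.13% and 24.4%.

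The genes varied among cells to very different degrees. For Cst3 the variance of the thinned counts was 30.4 times the mean in the wild type and 18.0 times in the knockout library, where plain counting gives 1 and genes of like mean had medians of 2.45 and 2.88. The median cell held 7 wild type and 8 knockout Cst3 UMIs, the 10th percentile 2 in both, and the 90th 30 and 29. The 10% of cells with most Cst3 held 41.8% of its UMIs in wild type and 36.4% in knockout cells. Cst3 thus ran from 0 to 310 UMIs in a wild type cell and to 203 in a knockout cell, with a similar middle.

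The measured cathepsins were more even than Cst3. Ctsa, Ctsd and Ctsz had variances of 1.00 to 1.19 times the mean, close to counting alone. Ctsb had 1.17 and 1.47, below the medians of 1.62 and 2.03 for genes of like mean. Ctsl had 1.52 and 1.83, likewise below 2.29 and 2.37. Ctss had 8.33 in the knockout library, where 1 barcode held most of its UMIs. Ctsk, at 1.86 and 1.98, was above the median of 1.10 and 1.25 for genes of like mean. Lgmn had 1.09 in the wild type, where there was little to vary, and 1.48 in the knockout library, against 1.10 for genes of like mean there.

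To see where in the FAP population the genes lay, the cells of both libraries were clustered without the 9 genes. Of 13 clusters, 8 had 25 or more cells from both libraries, with 1438 wild type and 1201 knockout cells in them. Clusters are given by number and leading genes, without cell type names. The libraries filled them unequally: cluster 0, led by Cpxm1 and Fbln7, held 37 wild type and 369 knockout cells, and cluster 3, led by Cxcl9, Tnc and Timp1, held 40 and 406. These 2 clusters had 5.02% of the wild type and 54.0% of the knockout cells. Since library differences help to form clusters, the ratios within them are not independent of the grouping.

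Lgmn was higher in the knockout library in 8 of 8 shared clusters, by log2 ratios of 0.33 to 2.69 with a median of 1.47, and the interval lay above 0 in 7. Its wild type levels across these clusters ran from 15.1 to 41.5 CPM, with a median of 22.1, and its knockout levels from 35.3 to 155 CPM, with a median of 62.8. The 2 ranges met only in that the highest wild type cluster, 3, stood above the lowest knockout cluster, 7. Cluster 7, led by Dkk2 and Igfbp3, was the exception, with 28.1 and 35.3 CPM and a ratio of 0.33 (-0.33 to 0.97). In the 2 clusters filled mainly by knockout cells, Lgmn had 20.8 CPM in wild type and 134 CPM in knockout cells of cluster 0, and 41.5 and 155 CPM in cluster 3.

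Ctsk followed another pattern. Its level differed more between clusters than between libraries: in cluster 0 it had 467 CPM in wild type and 418 CPM in knockout cells, in cluster 3 it had 353 and 331 CPM, and in cluster 1, led by Stmn4, Efhd1 and Pi16, it had 96.8 and 130 CPM. Within the 8 shared clusters Ctsk was higher in 4 and lower in 4, with a median log2 ratio of 0.10 and a range of -0.23 to 0.76. The interval lay above 0 in clusters 1, 2 and 4 and below 0 in none. Clusters 0 and 3 held 21.1% of the wild type and 73.4% of the knockout Ctsk UMIs, beside 8.18% and 57.4% of all UMIs.

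Ctsb was higher in knockout cells in 8 of 8 shared clusters, by 0.13 to 0.62 with a median of 0.46, and the interval lay above 0 in 7. Within these 8 it varied little, from 436 to 656 CPM in the wild type and from 611 to 848 CPM in the knockout library. Over all 13 clusters, both libraries together, it had a 2.01-fold range, from 500 CPM in cluster 4 to 1006 CPM in cluster 9. Ctsa was higher in 7 of 8 with a median of 0.19, Ctsd in 6 of 8 with 0.03, Ctsz in 4 of 8 with -0.02 and Ctsl in 3 of 8 with -0.03. Ctss had too few UMIs for any cluster.

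Cst3 differed between clusters far more than between libraries. Over both libraries and all 13 clusters it was highest at 8639 CPM in cluster 8, led by Gdf10 and Fmo2. It was lowest at 564 CPM in cluster 5, led by Cmah and Sema3c, a 15.3-fold range. Cluster 4, led by Clu, Cpe and Comp, was also rich in it, with 6009 CPM in wild type and 6068 CPM in knockout cells. Within shared clusters Cst3 was higher in 4 and lower in 4 with a median log2 ratio of -0.08. The lowest ratio, -0.76 (-0.82 to -0.69), was in cluster 0, with 4338 CPM in 37 wild type cells and 2570 CPM in 369 knockout cells.

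**Figure D3:**
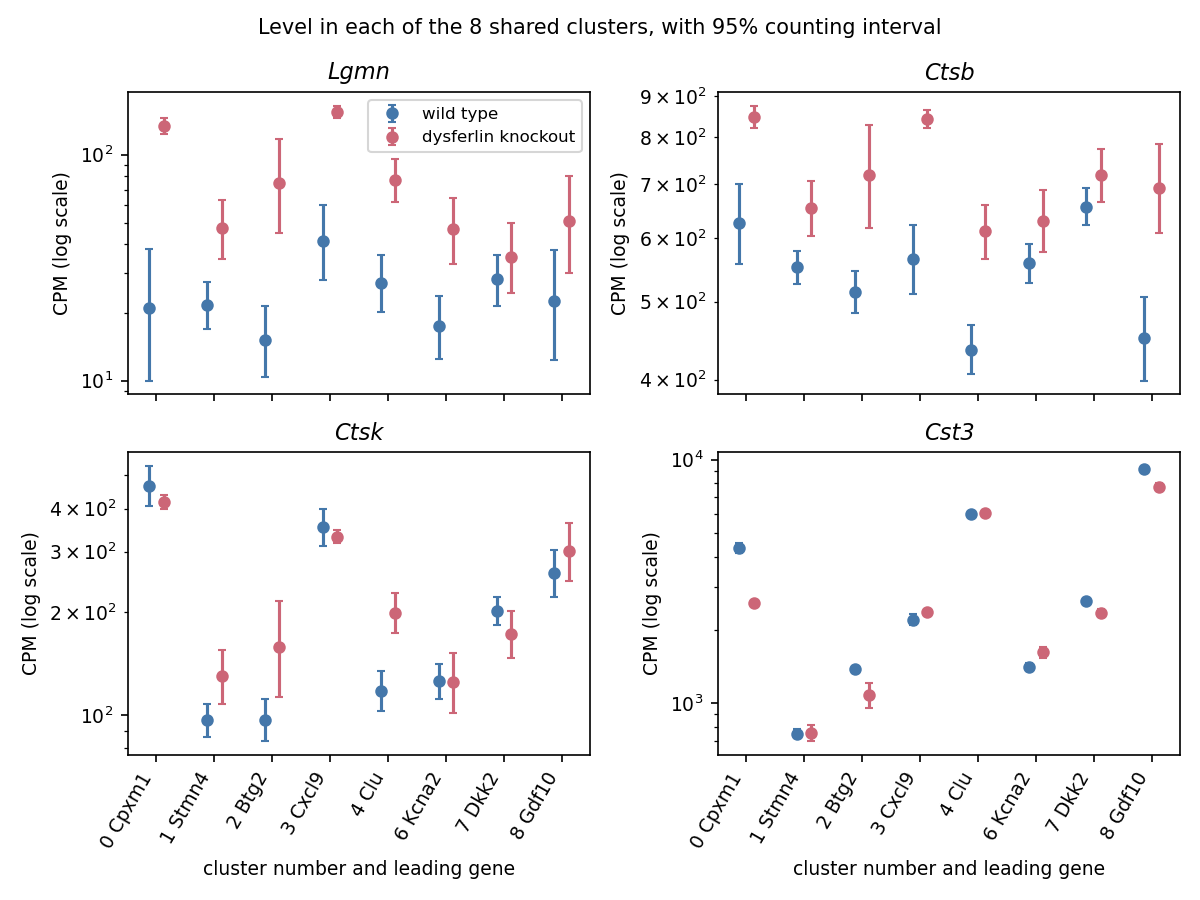
Levels of Lgmn, Ctsb, Ctsk and Cst3 in CPM on a log axis, with 95% counting intervals, in each of the 8 shared clusters, wild type beside knockout cells. Lgmn and Ctsb are higher in the knockout cells of each of the 8, Ctsk in 4, and Cst3 spans about the same range in both libraries.

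The Lgmn ratio was of like size in every class of depth. In cells of 500 to 5000 UMIs the log2 ratio was 2.06, at 5000 to 10000 it was 1.96, at 10000 to 20000 it was 2.22, and in cells of at least 20000 UMIs it was 1.90. Ctsk had ratios of 1.12, 0.81, 0.88 and 0.21 over the same classes, the last over 61 wild type and 244 knockout cells. Without barcodes with a UMI of any of the 15 macrophage markers, Lgmn had a log2 ratio of 2.25, Ctsk 0.95 and Ctsb 0.50. The osteoclast list summed to 10.4 and 31.0 CPM, nearly all from Acp5 (9.43 and 27.9 CPM), while Calcr was at 0 in both libraries and Ocstamp in the wild type. The part of Acp5-bearing cells in the Ctsk values was not tested.

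Over cells, the counts of the members were weakly correlated. Pearson's r was computed on the logarithm of thinned counts within each library, where all cells share 1 library and the counts are sparse. Over the 28 pairs that leave out Ctss, the median r was 0.06 in 1234 wild type and 0.08 in 1263 knockout cells. It exceeded 0.1 in 6 and 11 pairs, against 1.51% and 2.54% of all pairs of 2714 genes with at least 50 CPM in each library. These genes were not matched to the members by level, and Lgmn, at 24.2 CPM in wild type cells, was below that minimum. The highest were Ctsk with Cst3 (0.19 and 0.24), Ctsz with Cst3 (0.18 and 0.25) and Ctsk with Ctsl (0.13 and 0.22), in the wild type and the knockout library. These top pairs included the inhibitor with a protease that it can block. Other such pairs were lower: Cst3 with Ctsl had 0.10 and 0.20, with Lgmn 0.07 and 0.06, and with Ctsb -0.01 and -0.02. Lgmn had an r of 0.09 and 0.16 with Ctsk, and of 0.03 and 0.14 with Ctsb. Within clusters the median r was 0.05 and 0.07. With cells thinned to 3000 UMIs instead, the knockout values of Lgmn were much lower. Its r was then 0.07 in wild type and 0.03 in knockout cells with Ctsk, and -0.02 and 0.05 with Ctsb.

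Knockout cells were also grouped by their Lgmn count. Cells with 0, 1 and at least 2 Lgmn UMIs after thinning (816, 289 and 158 cells) had mean Ctsk counts of 1.19, 1.37 and 1.86 and mean Ctsb counts of 3.72, 4.15 and 4.69. Cst3 differed little, at 12.4, 13.3 and 13.4. The 342 knockout cells with a UMI of Cxcl9, an interferon-induced chemokine, had 154 CPM of Lgmn against 102 CPM in the other 1093, and 331 against 268 CPM of Ctsk. Their median depth was also higher, at 16002 against 11821 UMIs. The 1511 wild type cells without a Cxcl9 UMI had 23.8 CPM of Lgmn. The part of Cxcl9-bearing cells in the Lgmn values was not tested.

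**Figure D4:**
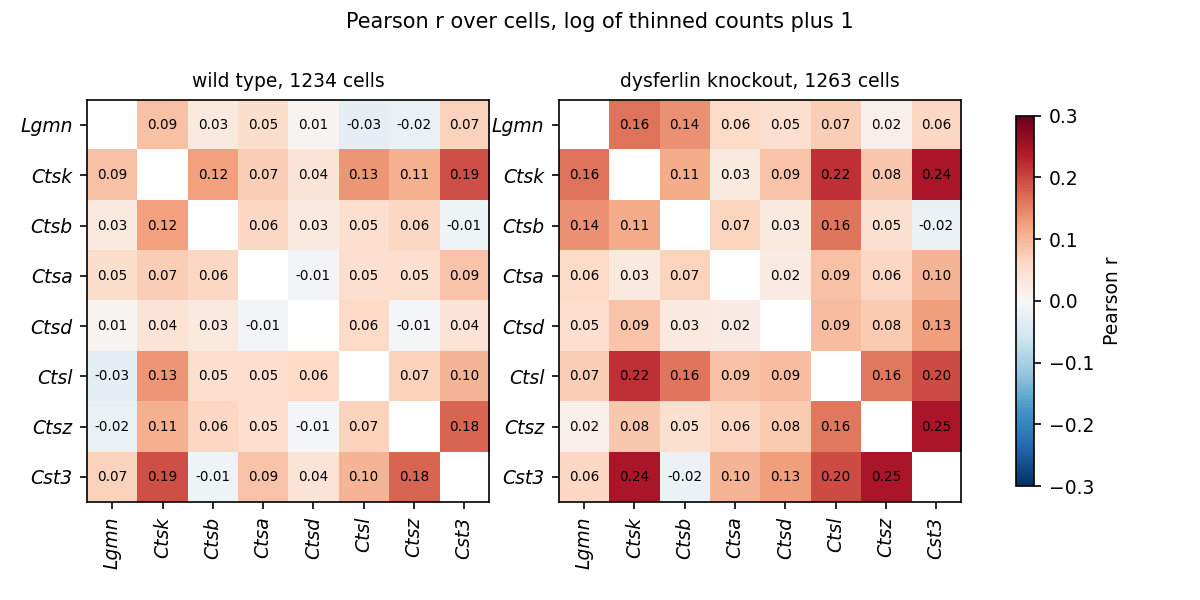
Pearson's r over cells for each pair of the 8 members other than Ctss, on the log of thinned counts plus 1, for wild type (left) and knockout cells (right). Values lie between -0.03 and 0.25, and in both libraries Cst3 with Ctsk and with Ctsz are the highest pairs.

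The genes most alike over cells, ranked by mean r among 2714 genes, differed in part from member to member. For Cst3 they were Mgp (0.68 in the wild type, 0.66 in the knockout library), an inhibitor of calcification, Bgn (0.50 and 0.50), a small proteoglycan, Igfbp7, Sparcl1 and Cygb. For Ctsk they were the matrix genes Lum (0.28 and 0.36), Sparc (0.27 and 0.36), Col3a1 and Col1a1, with Igfbp7. For Lgmn they were Postn (0.13 and 0.19), Cxcl14 (0.04 and 0.27), Timp1 (0.11 and 0.19), Mmp3 (0.04 and 0.25) and Cpxm1 (0.08 and 0.19). For Ctss, seen in few cells, Btg1, Hspb1, Creg1, Sod1 and Metrnl came first with r of 0.10 or less, which is no finding. Igfbp7 was also among the first 5 for Ctsz and Ctsa, and Lum among those for Ctsb, Ctsd and Ctsa.

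Other genes of the lysosome seldom reached 1.5-fold, as did few genes in all (5.07% higher and 3.59% lower). Of 36 other lysosomal hydrolases, 26 were measured, 1 was at least 1.5-fold higher, none lower. Of these 26, 21 had a log2 ratio above 0, with a median of 0.20, against 3478 of all 5933 genes and a median of 0.05. The higher one was Man2b1, lysosomal α-mannosidase, with 38.8 CPM in wild type and 58.5 CPM in knockout cells (0.59). Of 16 lysosomal membrane proteins, 9 were measured with a median of 0.01, and 1 was past 1.5-fold upward: Scarb2, the sorting receptor of glucocerebrosidase, with 42.9 and 71.5 CPM (0.74). None of these lists had a measured gene 1.5-fold lower.

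No measured gene passed 1.5-fold in the 5 other lists of the pathway. All 5 accessory proteins were measured with a median of 0.11, among them Psap, the saposin precursor (696 and 671 CPM), and Npc2, a cholesterol carrier (272 and 327 CPM). For the V-ATPase, the proton pump that acidifies lysosomes, 15 of 16 genes were measured with a median of 0.01, Atp6v0e having 175 and 163 CPM and Atp6v1g1 174 and 140 CPM. For sorting receptors, 6 of 10 were measured with a median of 0.12, among them Lrp1 (725 and 730 CPM) and Igf2r, which carries new hydrolases to lysosomes (107 and 152 CPM). For transcriptional regulators of lysosomal genes, 5 of 7 were measured with a median of -0.03, Usf2 having 55.0 and 54.0 CPM and Zkscan3 56.8 and 51.7 CPM. For autophagy genes, 12 of 15 were measured with a median of -0.03, among them Gabarap (481 and 491 CPM) and Map1lc3b (301 and 294 CPM).

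Most other members of the 2 families were below the 20 CPM minimum. Of 7 other cathepsins, 3 were measured, none past 1.5-fold, with a median of 0.23: Ctsh, an aminopeptidase, had 123 CPM in wild type and 161 CPM in knockout cells (0.39), and Ctsf had 54.5 and 63.9 CPM (0.23). Of 11 other cystatins, 1 was measured: Cstb, a cytosolic inhibitor, with 97.6 and 129 CPM (0.40). Below the minimum, and chosen after their values were seen, Ctsc, which activates granule proteases, had 79 wild type and 176 knockout UMIs, a log2 ratio of 0.74 (0.35 to 1.15). Kng2, a kininogen, had a ratio of 2.21 and Cst6, a secreted cystatin, one of -1.35. No measured gene of these lists had a log2 ratio above 0.74, beside 2.27 for Lgmn.

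**Figure D5:**
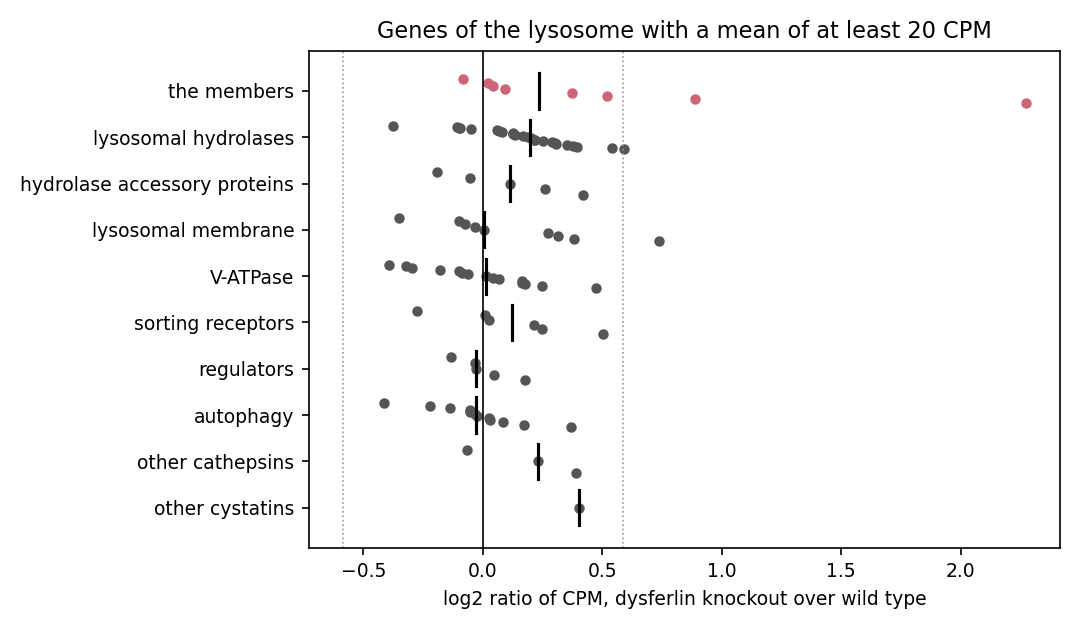
Knockout over wild type ratio of CPM on the log2 scale for each measured gene (a point) of the members and of 9 lists of related genes, with each list's median as a bar and 1.5-fold as dotted lines. Of the listed genes Man2b1 at 0.59 and Scarb2 at 0.74 lie past the line, and Lgmn at 2.27 lies farthest out.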

How the data were processed

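The deposited files hold raw UMI counts per gene and barcode, 1 matrix for wild type and 1 for dysferlin knockout FAPs; each group has 4 labelled samples. Cell Ranger 3.0.0, Seurat and mm10 are named in the submitters' processing notes, and software version 3.0.2 stands in the matrices, per the file headers. The rule for telling cells from empty droplets was not found in these sources. CPM is the sum of a gene's UMIs over the kept barcodes divided by all their UMIs, in parts per 1000000. Ratios have exact conditional binomial, sums exact Poisson and shares exact Clopper-Pearson 95% intervals. A count of 0 allows up to 3 counts, which is 0.208 CPM for wild type and 0.156 CPM for knockout cells. With 1 library per group no test and no p-value was computed.

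Clustering used scanpy 1.11.5 (2000 variable genes without the 9 members, 30 components, 15 neighbours, Leiden resolution 0.8, no integration). Scrublet called 2 wild type and 1 knockout doublet, too few to rely on without a check of its threshold, which was not made. The called barcodes were kept. Per the labels' protocols, the sort gated on trigger pulse width against doublets. Of the kept barcodes, 17.2% of the wild type and 11.8% of the knockout had exactly 1 Pdgfra UMI. Ratio and interval code was tested on simulated data.

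The members, gene lists and settings were chosen with earlier results of these data known. Named are all members, from each list the genes past 1.5-fold or else the 2 most abundant, and for Lgmn, Ctsk, Ctss and Cst3 the 5 genes most alike; Lyz2, Acp5, Calcr, Ocstamp, Cxcl9, Kng2, Cst6, Ctsc, and Col1a1 and Dcn in 1 barcode were added after their values were seen. Gene positions are GENCODE M21 (mm10); proteins were not used here.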

Additional observations from a re-analysis of the deposited data

Results flagged for a closer look

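Barcodes with no Pdgfra UMI that passed the other filters, 264 wild type and 149 knockout barcodes, were outside the comparison above. The share of all genes past 1.5-fold in these barcodes was not computed, so only the levels of the members are given. Ctss had 352 CPM in the knockout and 18.7 CPM in the wild type barcodes, and Lgmn had 242 and 24.1 CPM. Ctsb had 1023 and 453 CPM, Ctsd 685 and 205 CPM, Ctsa 109 and 51.3 CPM, and Ctsk 192 and 118 CPM. Ctsz (366 and 266 CPM) and Cst3 (3512 and 3093 CPM) were higher by less, and Ctsl was lower (867 and 931 CPM). Of the knockout UMIs in these barcodes, the 7 barcodes with at least 3 macrophage markers held 280 of 282 for Ctss (99.3%), 74.9% for Ctsd, 53.6% for Lgmn, 48.2% for Ctsb, 40.2% for Ctsa and 1.95% for Ctsk. The 6 such wild type barcodes held 75% of the wild type Ctss and 32.3% of the Lgmn UMIs there. In the remaining barcodes without Pdgfra, Lgmn had 16.8 CPM in wild type and 131 CPM in knockout barcodes, Ctsk 122 and 219 CPM, Ctsb 433 and 618 CPM, and Ctsd 195 and 201 CPM. Ctss, on few UMIs there, had 4.80 CPM in wild type and 2.91 CPM in knockout barcodes.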

How the results depend on the processing

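Lgmn stayed at least 1.5-fold higher in all 13 settings, with log2 ratios of 1.47 to 2.33, and Ctsk in 12 of 13, with 0.10 to 0.98. As a median over the shared clusters, Lgmn stayed past 1.5-fold and Ctsk did not, and the median ratio of the members was 0.067 instead of 0.23. The share of all genes past 1.5-fold by that measure was not computed. No member was 1.5-fold lower under any setting. Ctsz turned to -0.018 with the stricter barcode filter (1000 genes, 5% mitochondrial UMIs), -0.021 without barcodes with any macrophage marker, -0.025 without those with at least 3 (an alternative added after seeing the data), -0.023 as the cluster median, -0.0063 as a mean over cells, -0.0089 after thinning and -0.015 with a total that left out mitochondrial, ribosomal and the 50 most abundant genes. Cst3 turned to 0.015 with at least 2 Pdgfra UMIs, and Ctsl to -0.032 as the cluster median. The share of cells with Cst3 differed by 0.217 percentage points upward at 3000 UMIs. The median of the lysosomal regulators turned to 0.0079 with the looser filter (200 genes, 20%), and that of the V-ATPase to -0.0092 with the stricter one. Ctss ranged from 0.77 to 4.57. At Leiden resolution 0.4, Lgmn was higher in 5 of 5 shared clusters and Ctsk in 4 of 5. The other total moved the median of all genes from 0.05 to 0.02. No paired analysis was possible because each group is 1 pooled matrix whose columns carry no sample numbers.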

Other observations

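Kng2, a kininogen and so a relative of the cystatins, had 70 UMIs in the wild type (4.85 CPM) and 432 in the knockout library (22.5 CPM), a log2 ratio of 2.21 (1.85 to 2.60). It was chosen after its values were seen and is below the 20 CPM minimum. Cst6, a secreted cystatin that inhibits legumain, went the other way at lower counts, with 69 wild type and 36 knockout UMIs (-1.35, -1.97 to -0.75), and was likewise chosen after its values were seen. Neither difference has a replicate check.

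Outside the shared clusters, Lgmn was also present in clusters found almost only in the knockout library. It had 131 CPM in the 38 knockout cells of cluster 11, led by the proliferation genes Top2a and Mki67, and 103 CPM in the 42 knockout cells of cluster 12, led by the mast cell protease genes Cma1 and Mcpt4. Cst3 had 1011 CPM in the former and 5061 CPM in the latter. The highest wild type level of Lgmn in any cluster was also outside the shared ones, in cluster 9, led by 6030408B16Rik and Dlk1. There Lgmn had 67.8 CPM in 41 wild type cells and 112 CPM in 15 knockout cells, a log2 ratio of 0.72 (-0.18 to 1.60).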
